A study of Equus caballus with 8 samples.

Results

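Aminoacyl-tRNA synthetases are the enzymes that attach each amino acid to its tRNA, and 37 of the 15266 named genes in the table encode them or their subunits. The members were found by symbol, as the amino acid letter followed by ARS with or without a 2, together with EPRS and the FARSA and FARSB subunits. Symbols ending in 2 mark the 17 mitochondrial enzymes, and the other 20 genes encode the cytosolic enzymes. Mesenchymal stem cells from equine bone marrow (BM-MSCs) gave 8 RNA-sequencing libraries, 1 untreated and 1 treated with TGF-β2 from each of 4 horses, called D, J, L and W. The marrow of each horse was divided between a control culture and a culture that received 1 ng/ml human recombinant TGF-β2 from isolation until passage 3 or 4, and both cultures grew in low glucose DMEM with fetal bovine serum and basic fibroblast growth factor. The libraries of a group are thus different horses, and the 2 libraries of a horse are a pair. The treatment was long, so the values describe cells grown in TGF-β2 and not the first hours after its addition.

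Each synthetase recognizes its amino acid and its tRNA and joins them with energy from ATP, which makes charged tRNA the substrate of every round of peptide elongation. The enzymes fall into class I and class II by the fold of the catalytic domain. In the cytosol of animal cells several of them are held in a multi-synthetase complex by scaffold proteins, while the others are free-standing. The mitochondrial enzymes are encoded in the nucleus, made in the cytosol and imported, and they charge the tRNAs that serve the translation of the few proteins encoded in mitochondrial DNA. GARS and KARS supply both compartments from a single gene each, and mitochondria lack a glutaminyl-tRNA synthetase, since EARS2 charges that tRNA with glutamate and an amidotransferase of GATB, GATC and QRSL1 then converts it. When an amino acid runs short or protein folding in the endoplasmic reticulum is disturbed, the transcription factor ATF4 is translated and is known to induce many of the cytosolic synthetase genes together with genes of amino acid synthesis and import.

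The values, called normalized counts below, are gene counts that were each divided by the size factor of their library. Between 40044240 and 57228675 reads were counted in the untreated libraries and between 39184554 and 46634539 in the treated libraries. All 37 synthetase genes were measured well above the floor, with 1244 reads over the 8 libraries for MARS2 and 190613 for WARS. Normalized counts are not divided by transcript length, so levels are compared between libraries and not between genes. All 5 stromal markers, NT5E, THY1, ENG, CD44 and ITGB1, were present, with summed levels of 138766 to 309522 normalized counts in untreated and 150975 to 250162 in treated libraries. THY1 and ENG fell and ITGB1 rose with treatment. The log2 fold changes of the 5 markers ran from -2.21 to 0.91, which the summed level does not show. Of 4 blood cell markers CD14 and CD34 are not in the table, and neither PTPRC nor ITGB2 was at 0. Their summed level was 13.1 to 181 normalized counts in untreated and 5.96 to 74.7 in treated libraries, ITGB2 passed the test as lower, and the part of blood cells in the results below was not tested. In bulk RNA, fewer cells of a type and less RNA per cell cannot be told apart.

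Before the results, 2 untreated libraries are described because they stand apart. In untreated J the chemokine CXCL10 reached 33719 normalized counts and the guanylate-binding protein GBP5 reached 20223, against 859 and 255 in untreated W and at most 14.1 for either gene in the 6 other libraries. IRF1, a transcription factor of the interferon response, was 13523 in untreated J and 1965 in untreated W. These 3 interferon-response genes were chosen after their values were seen. In untreated L, ATF4 stood at 20964 normalized counts, which lay within the range of the 4 treated libraries, 18521 to 27415, while the 3 other untreated libraries held 7270 to 10941.

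Most of the cytosolic enzymes rose with TGF-β2 treatment, while the mitochondrial enzymes were called lower about as often as genes in general. Of the 20 cytosolic genes, 14 passed the test as higher and 0 as lower, where 15.7% of the 14907 genes tested were higher and 15.3% lower. Of the 17 mitochondrial genes, 0 passed as higher and 3 as lower. The test was limma on log2(normalized count + 1) with the horse as a block and Benjamini-Hochberg adjusted p under 0.05 over all genes tested, and all fold changes below are on that scale. The median log2 fold change was 0.66 over the cytosolic genes, -0.20 over the mitochondrial genes and 0.01 over all genes tested. With the further condition of an absolute log2 fold change over 1, 3 cytosolic genes (IARS, MARS and GARS) and 0 mitochondrial genes were called, beside 6.83% of all genes higher and 7.31% lower.

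At an unadjusted p under 0.05, limma found 16 cytosolic genes higher and 0 lower, and 0 mitochondrial genes higher and 4 lower. The counts of 0 also stood by DESeq2 and by edgeR's quasi-likelihood test with the horse in the model, which both called 14 cytosolic genes higher. Those 14 were the same genes by all 3 tools. DESeq2 called 4 mitochondrial genes lower and edgeR 3. Over all 14907 genes tested DESeq2 called 2891 higher and 2881 lower, and edgeR 2230 and 2196.

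The cytosolic count depended on the horses. Without horse D limma called 0 of the 20 cytosolic genes, and without horse W it also called 0, with 13 higher at an unadjusted p under 0.05 in both cases and 785 and 730 genes higher over the whole table, in place of 2334. DESeq2 with the horse called 10 cytosolic genes without D and 9 without W, with 1663 and 1667 genes higher over the whole table, in place of 2891. Without horse L limma called 11, with 1566 genes higher over the whole table. Without horse J it called 14, with 2741 higher over the whole table, and DARS and RARS took the places of AARS and LARS. All 14 genes kept a positive log2 fold change in each of these fits. Without the block on the horse limma called 6 of them, FARSA, EPRS, GARS, MARS, NARS and TARS, and 1734 genes higher over the whole table. When each library was scaled to its total count in place of the size factors, the median of all genes moved to -0.30, the calls over all genes went from 2334 higher and 2276 lower to 1196 and 5254, and 4 cytosolic genes, IARS, MARS, GARS and TARS, remained higher.

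**Figure D1:**
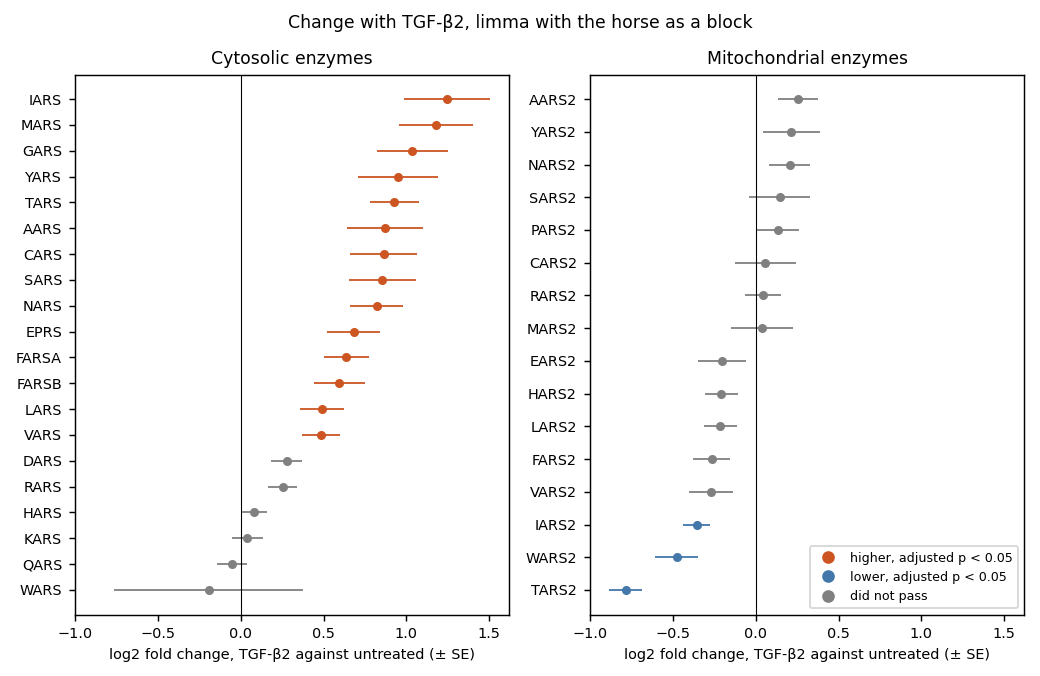
Log2 fold change of the synthetase genes, TGF-β2-treated against untreated, with its standard error as a bar, from limma with the horse as a block in 4 pairs of libraries. The 14 cytosolic genes that passed lie between 0.49 and 1.25, and the 3 mitochondrial genes that passed, in blue, between -0.79 and -0.36, while WARS has the widest bar. Scaling to total counts lowers the values by about the same amount, and the signs of DARS, RARS, HARS and KARS and of the 8 mitochondrial genes above 0 then turn.

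The 6 cytosolic enzymes with the largest change were those for isoleucine, methionine, glycine, tyrosine, threonine and alanine. IARS, which charges isoleucine and belongs to the multi-synthetase complex, measured 2705, 4850, 11794 and 5758 normalized counts in the untreated libraries of horses D, J, L and W and 10828, 11218, 15200 and 15266 in the treated libraries. It rose in all 4 horses, yet the groups overlapped, because untreated L lay above treated D and J. The log2 fold change was 1.25 (SE 0.26, 2.37-fold, adjusted p = 0.0196 by limma). Without the block the adjusted p was 0.0529, and it ran from 1.07e-09 to 0.0944 over 20 alternatives.

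MARS, the methionyl-tRNA synthetase of the complex, which serves both the initiator and the elongator tRNA, measured 2044, 3825, 6696 and 3155 in untreated and 7136, 7497, 9304 and 8758 in treated libraries. All treated libraries lay above all untreated ones. Its log2 fold change was 1.18 (SE 0.22, adjusted p = 0.0156 by limma). In a newer horse assembly MARS overlaps DDIT3, which encodes the stress-response factor CHOP, and ARHGAP9, and whether the counting used strand is not given in the sources used here. DDIT3 itself had a log2 fold change of 0.73 with an adjusted p of 0.0842 by limma and 0.0308 by DESeq2 with the horse.

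GARS, the glycyl-tRNA synthetase of the cytosol and of mitochondria, measured 7675, 9305, 21663 and 10794 in untreated and 20974, 20384, 25783 and 26777 in treated libraries. Here untreated L exceeded treated D and J, and the 3 other untreated libraries lay well below. The log2 fold change was 1.04 (SE 0.21, 2.05-fold, adjusted p = 0.0192 by limma).

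YARS, the free-standing tyrosyl-tRNA synthetase, measured 1651, 3075, 5591 and 3191 in untreated and 5418, 5603, 6315 and 6584 in treated libraries, and only untreated L reached into the treated range. Its log2 fold change was 0.95 (SE 0.24, adjusted p = 0.0348 by limma), with 0.0627 without the block and a range of 1.00e-05 to 0.136 over 20 alternatives. TARS, which charges threonine, measured 4330, 5438, 9230 and 5782 in untreated and 9941, 9659, 12839 and 13364 in treated libraries, with no overlap. It rose by 0.93 on the log2 scale (SE 0.15, adjusted p = 0.00959 by limma), the only cytosolic gene with an adjusted p under 0.01. AARS, the alanyl-tRNA synthetase, measured 5708, 8132, 20519 and 11258 in untreated and 16176, 14811, 21733 and 23181 in treated libraries. Untreated L was again inside the treated range, and the log2 change in horse L was 0.08 where it was 0.86 or more in the 3 other horses. The log2 fold change of AARS was 0.87 (SE 0.23, adjusted p = 0.0380 by limma), and the adjusted p was 0.122 without the block and 1.16e-06 to 0.147 over 20 alternatives.

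The 8 other cytosolic genes that rose were CARS, SARS, NARS, EPRS, FARSA, FARSB, LARS and VARS, with log2 fold changes from 0.49 to 0.86 and adjusted p from 0.0167 to 0.0396 by limma. EPRS, a single chain that charges both glutamate and proline, went from 8158, 14547, 14614 and 11896 to 19115, 19419, 19636 and 18809, so that the treated libraries differed by only 1.04-fold between the highest and the lowest. FARSA and FARSB, subunits of the same phenylalanyl-tRNA synthetase, had log2 fold changes of 0.64 and 0.59. In 6 of the 20 cytosolic genes (MARS, TARS, NARS, EPRS, FARSA and FARSB) all treated libraries lay above all untreated ones, which was so for 13.9% of all genes, and 17 of 20 were higher in all 4 horses, against 26.3% of all genes.

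**Figure D2:**
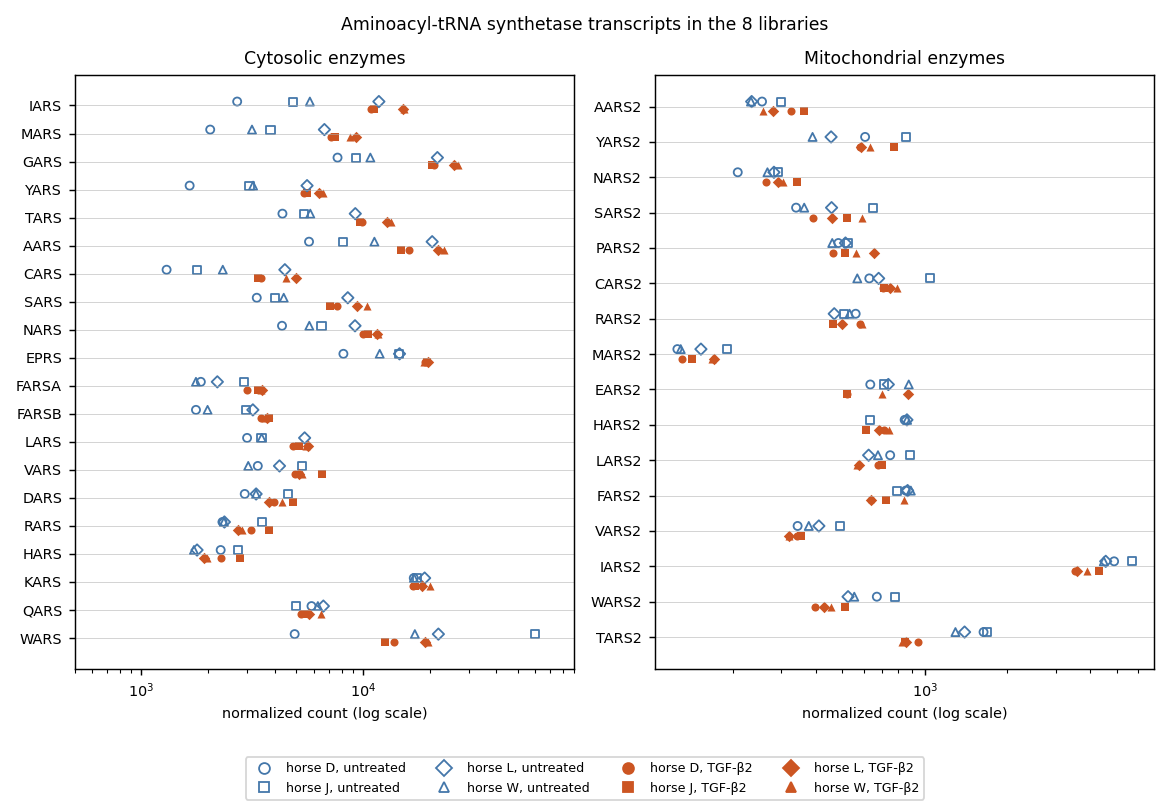
Normalized count of the synthetase genes in each of the 8 libraries on a log axis, with open blue symbols for untreated and filled orange symbols for TGF-β2-treated libraries and 1 symbol shape per horse. In the rows of IARS, GARS, YARS and AARS the diamond of untreated L lies apart from the other open symbols and among the filled ones. For MARS and TARS it lies apart from the other open symbols but below all filled ones. In the row of WARS the square of untreated J stands at 59726.

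The 6 cytosolic genes that did not pass were DARS, RARS, HARS, KARS, QARS and WARS. DARS, the aspartyl-tRNA synthetase of the complex, measured 2926, 4574, 3293 and 3290 in untreated and 3979, 4825, 3783 and 4319 in treated libraries, and RARS, the arginyl-tRNA synthetase of the complex, measured 2321, 3496, 2369 and 2357 against 3133, 3755, 2715 and 2857. Each was higher after treatment within every horse, and in both genes the high untreated library was J. The log2 fold changes were 0.28 (SE 0.09, adjusted p = 0.0730 by limma) for DARS and 0.25 (SE 0.09, adjusted p = 0.0782) for RARS. Without horse J both passed limma, with adjusted p of 0.0345 and 0.0484, and over 20 alternatives the adjusted p ran from 0.0323 to 0.784 for DARS and from 0.0484 to 0.615 for RARS.

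HARS, which charges histidine, measured 2279, 2732, 1783 and 1726 in untreated and 2288, 2773, 1908 and 1971 in treated libraries. The differences between horses were larger than those between the paired libraries, and the log2 fold change was 0.08 with a 95% confidence interval of -0.12 to 0.28. KARS, which serves both compartments, lay between 16948 and 18974 in untreated and between 16825 and 20098 in treated libraries. Its log2 fold change was 0.04 with an interval of -0.20 to 0.28. QARS, which charges glutamine, lay between 4976 and 6624 in untreated and between 5261 and 6431 in treated libraries, and its log2 fold change was -0.05 (interval -0.28 to 0.17). For these 3 genes the interval does not reach the median of the cytosolic enzymes, 0.66. Under scaling to total counts QARS was lower, with a log2 fold change of -0.36 against the median of -0.30 over all genes.

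WARS, the tryptophanyl-tRNA synthetase, differs from the rest in the spread of its untreated libraries, and it is known as an interferon-γ-inducible gene. It measured 4916 in untreated D, 59726 in untreated J, 21888 in untreated L and 17142 in untreated W, a 12.1-fold range, while the treated libraries held 13736, 12610, 18981 and 19590, a 1.55-fold range. The log2 change was 1.48 in D, -2.24 in J, -0.21 in L and 0.19 in W, so that 2 horses were higher and 2 lower. The log2 fold change was -0.19 (SE 0.57, adjusted p = 0.820 by limma). Without horse J it was 0.49, with an adjusted p of 0.285 by limma and 0.228 by DESeq2 with the horse. Untreated J was also the library with the most IRF1, CXCL10 and GBP5, and the part of these genes in the WARS values was not tested.

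**Figure D3:**
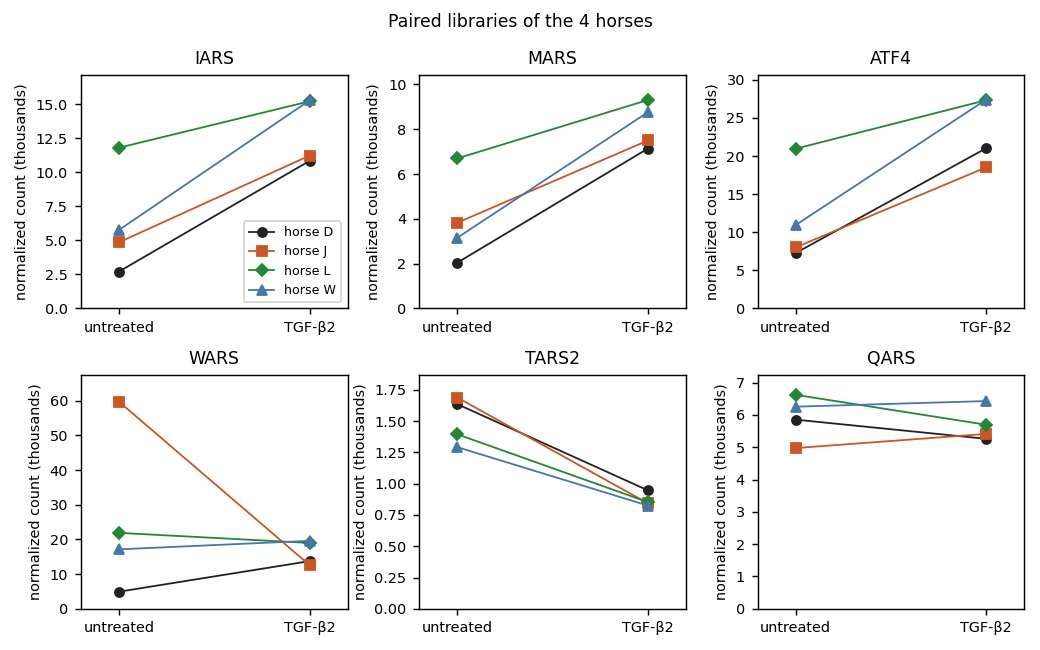
Normalized counts (axes in units of 1000) for IARS, MARS, ATF4, WARS, TARS2 and QARS, with a line joining the untreated and the TGF-β2-treated library of each of the 4 horses and every axis starting at 0. The lines of IARS, MARS and ATF4 all rise, least steeply in horse L, those of TARS2 all fall, those of QARS cross, and WARS falls from 59726 to 12610 in horse J.

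Membership of the multi-synthetase complex and enzyme class were not used to choose the genes. Of the 8 enzymes of the complex, 4 rose (EPRS, IARS, LARS and MARS) and 4 did not pass (QARS, RARS, KARS and DARS), with a median log2 fold change of 0.38. Of the 12 free-standing enzymes, 10 rose and HARS and WARS did not pass, with a median of 0.84. In class I, 6 of 9 cytosolic genes rose (median 0.49), and in class II, 7 of 10 did (median 0.73), with EPRS, which holds a domain of each class, counted apart. Over all genes tested 15.7% were higher. These groups were described and not tested against each other.

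The 3 scaffold proteins of the complex did not move as a set. EEF1E1, also called AIMP3 or p18, rose from 381, 714, 513 and 386 to 817, 888, 787 and 890 normalized counts, with no overlap and a log2 fold change of 0.81 (SE 0.18, adjusted p = 0.0236 by limma). AIMP2 measured 1142, 2601, 1543 and 1124 in untreated and 1940, 2260, 1845 and 2009 in treated libraries. Untreated J was its highest library, and the log2 fold change of 0.41 did not pass (adjusted p = 0.155). AIMP1 measured 1873, 2837, 1673 and 1731 in untreated and 2146, 2097, 1647 and 1714 in treated libraries, with a log2 fold change of -0.07 (adjusted p = 0.694).

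The size of the change differed between the horses in a way that most cytosolic genes shared. The median log2 change over the 20 cytosolic genes was 1.20 in horse D, 0.49 in J, 0.20 in L and 0.91 in W. Horse D had the largest change of the 4 in 13 genes and horse L the smallest in 14, while over all genes tested L had the lowest change in 24.4%. Untreated L was the highest untreated library in 14 of the 20 genes, against 24.0% of all genes, and untreated J in the 6 others. A high untreated level by itself makes the change of that horse smaller. Treated libraries were closer to each other. Over the 4 horses the SD of log2 levels was smaller in treated libraries for 19 of 20 cytosolic genes, against 65.9% of all genes. Its median went from 0.44 to 0.18, where over all genes it went from 0.33 to 0.23. Among the 17 mitochondrial synthetases the SD was smaller in 11 (64.7%), about the share of all genes. It was also smaller in 65 of 73 mitochondrial ribosomal proteins and 21 of 24 amino acid response genes. As a share of all reads, the 20 cytosolic genes took 0.224% to 0.439% in untreated and 0.369% to 0.402% in treated libraries. Without WARS the shares were 0.212% to 0.382% and 0.340% to 0.365%. The ratio of the treated to the untreated sum without WARS was 1.94 in D, 1.48 in J, 1.17 in L and 1.84 in W. For the sum over all genes tested it was 1.21, 1.18, 1.28 and 1.30, so that L lay below all genes. The share of reads without WARS rose in D, J and W and fell in L, from 0.382% to 0.349%. With WARS it rose in D and W and fell in J (0.439% to 0.386%) and L (0.434% to 0.385%).

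**Figure D4:**
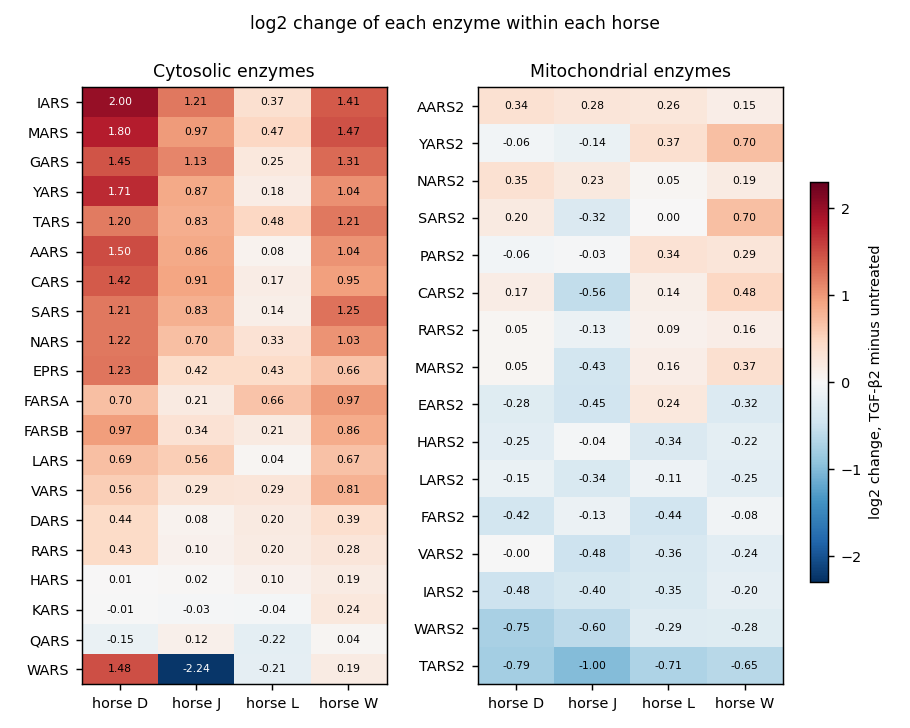
Log2 change, TGF-β2-treated minus untreated, of the synthetase genes within each of the 4 horses, with red for higher and blue for lower. The upper cytosolic rows are deepest in horse D and palest in horse L, WARS is 1.48 in D and -2.24 in J, and TARS2, at the foot of the mitochondrial panel, lies at -0.65 or lower in each of the 4 horses.

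Among the mitochondrial enzymes, TARS2 fell the most. TARS2, which charges mitochondrial threonyl-tRNA, measured 1637, 1689, 1396 and 1293 normalized counts in untreated and 947, 844, 853 and 825 in treated libraries. All treated libraries lay below all untreated ones. It fell by 0.79 on the log2 scale (SE 0.10, a decrease of 42.0%, adjusted p = 0.00511 by limma) and passed in all 20 alternatives, with an adjusted p between 2.06e-09 and 0.0367.

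IARS2, the mitochondrial isoleucyl-tRNA synthetase, went from 4896, 5674, 4563 and 4492 to 3521, 4303, 3573 and 3912, again without overlap. It fell by 0.36 on the log2 scale (SE 0.08, a decrease of 21.9%, adjusted p = 0.0262 by limma). WARS2, the mitochondrial tryptophanyl-tRNA synthetase, went from 668, 777, 525 and 553 to 398, 512, 429 and 457 and also did not overlap. Its log2 fold change was -0.48 (SE 0.13, adjusted p = 0.0414 by limma), with 0.0638 without the block and a range of 0.00606 to 0.177 over 20 alternatives. Without any single horse WARS2 did not pass limma, while IARS2 passed only without horse J.

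Of the 17 mitochondrial genes, 4 had all treated libraries below the untreated ones, as did 13.9% of all genes, and 8 were lower in all 4 horses, against 25.6% of all genes. AARS2 and NARS2 were higher in all 4 horses. Of the mitochondrial genes that did not pass, 13 had log2 fold changes from -0.27 to 0.26 and adjusted p of 0.122 or more by limma. The median log2 change of the mitochondrial genes was -0.06 in D, -0.34 in J, 0.00 in L and -0.08 in W, and untreated J was the highest untreated library in 12 of the 17, against 35.0% of all genes. The summed level of the 17 genes after treatment was 0.811 of the untreated level in D, 0.772 in J, 0.872 in L and 0.927 in W. In class I 2 of 9 mitochondrial genes fell, and in class II 1 of 8, where 15.3% of all genes were lower. The classes were not tested against each other.

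For 18 pairs, a cytosolic and a mitochondrial gene serve the same amino acid, with FARSA and FARSB both set beside FARS2, and EPRS beside EARS2 and PARS2. The difference of their log2 changes within a library does not depend on how libraries are scaled. In all 18 pairs the cytosolic gene had the higher mean log2 change, and in 15 it did in each of the 4 horses. The median difference was 0.75. The largest was 1.71 for threonine, from 1.19 in horse L to 1.99 in horse D, followed by 1.60 for isoleucine, from 0.72 in L to 2.48 in D. The exceptions in single horses were YARS and AARS in horse L and WARS in horse J. The pairs share genes and libraries and were not tested.

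**Figure D5:**
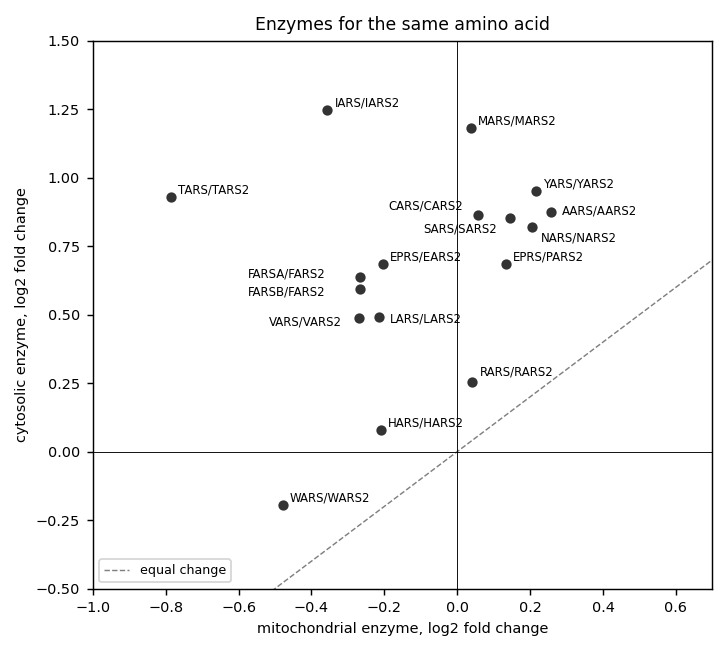
Log2 fold change of the cytosolic enzyme against that of the mitochondrial enzyme for the same amino acid, with 1 point per pair and a dashed line where both changes are equal. The 17 pairs drawn all lie above the line, the farthest being TARS with TARS2, and RARS with RARS2 is the closest, with a difference of 0.21.

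Among the other genes of tRNA charging, proofreading and export, 17 of a list of 19 were in the table. By limma 1 rose and 1 fell, shares below those of all genes (15.7% and 15.3%). DESeq2 with the horse called 4 of the 17 and edgeR 2. Of all 14907 genes DESeq2 called 2891 higher and 2881 lower, and edgeR 2230 and 2196. XPOT, the exportin that carries tRNA out of the nucleus, measured 4075, 6185, 13778 and 6986 in untreated and 13042, 12807, 14912 and 15374 in treated libraries. Untreated L lay inside the treated range, as for IARS, GARS, YARS and AARS but not for MARS and TARS. Its log2 fold change was 1.00 (SE 0.25, adjusted p = 0.0330 by limma). GATB, a subunit of the amidotransferase that completes mitochondrial glutaminyl-tRNA, went from 655, 729, 514 and 652 to 368, 346, 316 and 339. It fell in every horse without overlap, by 0.89 on the log2 scale (SE 0.12, adjusted p = 0.00591 by limma).

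The elongation factors act after charging, when the aminoacyl-tRNA is carried to the ribosome. Of 7 cytosolic factors EEF1D alone passed limma, with a log2 fold change of 0.40 (adjusted p = 0.0316), where 15.7% of all genes were higher. DESeq2 with the horse called 5, and of all 14907 genes tested it called 2891 higher and 2881 lower. EEF1A1, which delivers the aminoacyl-tRNA, measured 276869 to 341230 in untreated and 347783 to 444849 in treated libraries, with no overlap. Its log2 fold change was 0.37 (adjusted p = 0.261 by limma), and it was among the 5 factors called by DESeq2. Of 4 mitochondrial factors 0 passed by limma, DESeq2 or edgeR, and 1 was under an unadjusted p of 0.05 by limma. Of 73 mitochondrial ribosomal proteins 4 rose and 6 fell, shares below those of all genes (15.7% and 15.3%), with a median log2 fold change of 0.02. MRPL20 had the largest rise, 0.80 (adjusted p = 0.0135), and MRPS18B and MRPL45 the largest falls, -0.61 (adjusted p = 0.00921) and -0.61 (adjusted p = 0.0215 by limma).

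The genes of the amino acid response, a list of 24 compiled with earlier results of these data known, are shown beside the cytosolic synthetases because both sets are known targets of ATF4. Of the 24, 18 rose and 1, CEBPB, fell by limma, beside 15.7% and 15.3% of all genes, with a median log2 fold change of 1.46. With the horse in the model, DESeq2 called 20 of the 24 and edgeR 16, without TRIB3, CHAC1 and PSAT1. Of all 14907 genes DESeq2 called 2891 higher and 2881 lower, and edgeR 2230 and 2196. ATF4 measured 7270, 8015, 20964 and 10941 in untreated and 21035, 18521, 27332 and 27415 in treated libraries. It rose by 1.11 on the log2 scale (SE 0.20, adjusted p = 0.0135 by limma), with changes of 1.53 in D, 1.21 in J, 0.38 in L and 1.33 in W.

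CHAC1, which degrades glutathione, measured 10.4, 12.8, 1577 and 326 in untreated and 1253, 1495, 2750 and 2933 in treated libraries. Its untreated level was far higher in horse L than in D and J, and the log2 fold change was 4.38 (SE 1.07, adjusted p = 0.0315 by limma), with an adjusted p of 0.0574 by edgeR with the horse and 0.0691 by limma without the block. PSAT1, an enzyme of serine synthesis, measured 152, 119, 8446 and 1614 in untreated and 7351, 5472, 9699 and 10330 in treated libraries, and its untreated level was also highest in L and low in D and J. Its log2 fold change was 3.49 (SE 0.95, adjusted p = 0.0411 by limma), with an adjusted p of 0.0675 by edgeR with the horse and 0.0781 by limma without the block. STC2, the secreted glycoprotein stanniocalcin, measured 749, 1159, 3296 and 1469 in untreated and 17797, 7587, 30615 and 41762 in treated libraries, without overlap, with a log2 fold change of 3.83 (SE 0.38, adjusted p = 0.00309 by limma).

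In this list untreated L was the highest untreated library for 22 of 24 genes and horse L had the smallest change for 20, as for 14 and 14 of the 20 cytosolic synthetases. Over all genes the shares were 24.0% and 24.4%. These counts are not independent, since a high untreated level by itself makes the change smaller. The median log2 change over the list was 2.01 in D, 1.41 in J, 0.53 in L and 1.94 in W. The order of the horses by size of change, D, W, J and L, was the one found for the cytosolic synthetases, and 4 horses are too few for a correlation across them. CEBPB, a transcription factor of the same response, went from 5985, 6915, 4874 and 4236 to 2580, 2718, 3220 and 3056, a log2 fold change of -0.91 (SE 0.17, adjusted p = 0.0161 by limma).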

How the data were processed

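Poly(A)-selected RNA of 8 BM-MSC libraries from 4 horses was sequenced. Per the labels and methods, reads were trimmed with Trimmomatic 0.36, aligned to EquCab 3.0 with STAR 2.5.2b and counted per gene with featureCounts of Subread 1.5.2, and the authors compared groups with DESeq2. Annotation and strand setting are not given in the sources used here. The authors deposited normalized counts, a signal of gene counts divided by a size factor per library, so precision follows from the depth given above. The deposited signal values were whole multiples of the value of 1 read (100% within 0.001), and these recovered counts gave depth and the count tests. Of 15267 rows, 1 without a name was left out (0.028% to 0.053% of reads).

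Groups and horses came from the sample labels. Values were transformed as log2(normalized count + 1) and fitted in R 4.3.3 by limma 3.58.1 (lmFit, then eBayes with an intensity trend) with the horse as a block, although the study's text names no donor term. Genes needed 10 or more normalized counts in 4 or more libraries. Same-horse libraries deviated together (mean correlation of deviations 0.480, 0.386 to 0.609). Folds are 2 to the power of the log2 fold change. Alternatives were no block, pseudocounts of 0.5 and 5, no filter or a filter at 50, total, upper-quartile and TMM scaling, no trend, DESeq2 1.42.0, edgeR 4.0.16, stricter thresholds and each horse left out. DESeq2 with each horse left out was added after the values were seen. Procedures were tested on simulated data.

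Members and lists were chosen with earlier results of these data known. Values per library are given for the 6 cytosolic members with the largest change, the mitochondrial members that passed or changed most, the cytosolic members that did not pass, the scaffold genes, ATF4, EEF1A1 and up to 3 passing genes per list with the largest change. Names and neighbours came from a RefSeq table of another horse assembly, in which 19 members matched by symbol and 18 with a 1 added, so no coordinates are printed. In it 14 members overlap another coding gene, among them AARS, EPRS, HARS, MARS, WARS, YARS and IARS2. Whether reads of the overlapping genes entered their counts was not tested. Sequences were not analysed here, and some items covered by these rules are not reported here or drawn in the figures, though they are counted.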

Additional observations from a re-analysis of the deposited data

Results flagged for a closer look

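Among 74 groups of 4 libraries (37 genes, untreated and treated), 2 held a library far from the other 3 by Dixon's ratio, and chance alone gives about 1 in 20. In the untreated libraries RARS was 3496 normalized counts in horse J, against 2321 to 2369 in the 3 other horses. In the same group HARS2, which charges mitochondrial histidyl-tRNA, was 629 in horse J, against 844 to 861 in the others.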

How the results depend on the processing

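The direction of the 14 cytosolic and 3 mitochondrial calls held under every alternative, but the number past the threshold did not. The count of cytosolic enzymes called higher was 6 with no replicate block, 4 with total scaling, 9 with no intensity trend, 9 by DESeq2 with no replicate block, 1 at an adjusted p under 0.01 and 3 with a log2 fold change over 1, and it ran from 0 to 15 when a horse was left out. Total scaling called 1 cytosolic enzyme (QARS) lower. The count of mitochondrial enzymes called lower was 9 with total scaling, 1 with no intensity trend, 1 at an adjusted p under 0.01 and 0 with a log2 fold change under -1 (limma, 4 at an unadjusted p under 0.05), and 1 to 3 when a horse was left out. The median mitochondrial log2 fold change was -0.52 with total scaling, which moved the median of all genes by a similar step, to -0.30. Fewer samples enter the fits that leave out a horse, and the cause of the other changes was not tested.

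Under total scaling the log2 fold change turned sign for DARS (-0.034), HARS (-0.23), KARS (-0.27), RARS (-0.060), AARS2 (-0.055), CARS2 (-0.25), MARS2 (-0.27), NARS2 (-0.11), PARS2 (-0.18), RARS2 (-0.27), SARS2 (-0.17) and YARS2 (-0.10), none of which had passed. When a horse was left out, the log2 fold change ran from -0.030 to 0.066 for KARS, -0.11 to 0.0023 for QARS, -0.75 to 0.49 for WARS, -0.087 to 0.26 for CARS2, -0.079 to 0.19 for MARS2 and -0.045 to 0.30 for SARS2. Other pseudocounts, filters, TMM and upper-quartile scaling, and edgeR with the block changed no call of the 37 genes. The planned search for a motif in the promoters was not run, since no promoter sequence was used here. Each member had at least 1244 reads over the 8 libraries, and whether depth limits the counts was not tested.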

Other observations

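Other genes of the tRNA pathway were described after their values were seen, by families matched on symbol. Of 10 subunits of RNA polymerase III, the enzyme that transcribes tRNA genes, 4 rose and 1 fell by limma with the horse as a block, where 15.7% of all genes rose and 15.3% fell. POLR3D rose from 1202, 1745, 1955 and 1365 normalized counts in untreated D, J, L and W to 3228, 3237, 3189 and 2876, with a log2 fold change of 1.02 (SE 0.13, adjusted p = 0.00576), and POLR3B by 0.90 (adjusted p = 0.00967). POLR3GL, whose product takes the place of POLR3G in an alternative form of the enzyme, fell by 0.46 on the log2 scale (adjusted p = 0.0285).

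Of 16 tRNA methyltransferase genes 4 rose and 1 fell by limma, against the same shares of all genes. DESeq2 with the horse called 6, and of all 14907 genes it called 2891 higher and 2881 lower. TRMT2B (0.83, adjusted p = 0.0134 by limma) and TRMT61A (0.83, adjusted p = 0.0123), a subunit of the enzyme that methylates adenosine in the T loop, had the largest log2 rises, and TRMT1L fell by 0.54 (adjusted p = 0.0115). Of 5 subunits of EIF2B, the exchange factor of translation initiation, 0 passed limma or edgeR, 2 were under an unadjusted p of 0.05 by limma, and DESeq2 with the horse called 2. In these families the DESeq2 counts lay near the share of all genes that DESeq2 called.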
